A study of Mus musculus with 2 samples.

Results

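Fib-3 is the smallest of the 3 fibroblast classes that the authors' deposited cell annotation gives for the mouse aorta. Its members are all barcodes with that class in the annotation of either library: 184 of 5584 annotated cells, 117 of 3060 control and 67 of 2524 diabetic cells. For comparison, Fib-1 holds 631 cells (386 control and 245 diabetic) and Fib-2 holds 1440 (907 control and 533 diabetic). The classes carry numbers only, and how they were drawn is not given in the sources used here. They were probably formed from the same expression values, so differences between classes are a description and were given no test.

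Fibroblasts of the arterial wall live mainly in the adventitia, its outer coat, where they lay down collagen, elastic microfibrils and the proteoglycan gel between them. Across organs, one fibroblast population marked by Pi16, Dpp4 and Ly6a (which encodes Sca-1) sits along the outer edge of large vessels and is held to be a reserve from which other fibroblasts arise. A second kind, often marked by Col15a1, Mgp and small leucine-rich proteoglycans, lies within tissues and builds their matrix. Hyaluronan, a long sugar polymer, is spun out by hyaluronan synthases from UDP-glucuronate and UDP-N-acetylglucosamine and is cross-linked by proteins such as the Tnfaip6 product.

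Both libraries came from aortae of male C57BL/6 mice with the genotype Apoe -/-, which lack apolipoprotein E and develop atherosclerosis; controls and diabetic mice both carried the deletion. At 6 weeks of age mice received streptozotocin, a toxin of insulin-producing beta cells, at 55.0 mg per kg per day for 5 days into the peritoneum, or citrate vehicle, with a follow-up of 10 weeks and a stated age of 17 weeks. Per the labels' protocols, cells of 4 mice per group were pooled after enzyme digestion (1 hour at 37 °C), kept a further 30 minutes at 37 °C, sorted as live cells and made into 1 droplet library per group with 3' chemistry that counts unique molecular identifiers (UMIs). The study asked about the transcription factor AP-1 in diabetes-associated atherosclerosis. With 1 pooled library per group no difference between control and diabetic cells has a replicate check, no p-value is given, and every interval in the text is a 95% interval that covers counting error only.

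The cells of Fib-3 were deep. The median was 5882 UMIs per control cell (1981 to 12462) and 5574 per diabetic cell (2516 to 14975), against 3770 and 3656 in Fib-2 and 1410 and 1240 in Fib-1. In the control library no Fib-1 cell passed 2558 UMIs and no Fib-2 cell had fewer than 1823, so depth separated Fib-1 from the other classes almost completely. Ribosomal protein genes took a median 19.4% and 22.7% of UMIs in Fib-3 (control and diabetic), above the 12.1% and 14.8% of Fib-2 and the 9.70% and 11.5% of Fib-1. The class held 717619 control and 397131 diabetic UMIs in all. No Fib-3 barcode was shared by both libraries, and 8 annotated barcodes of any class were.

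**Figure D1:**
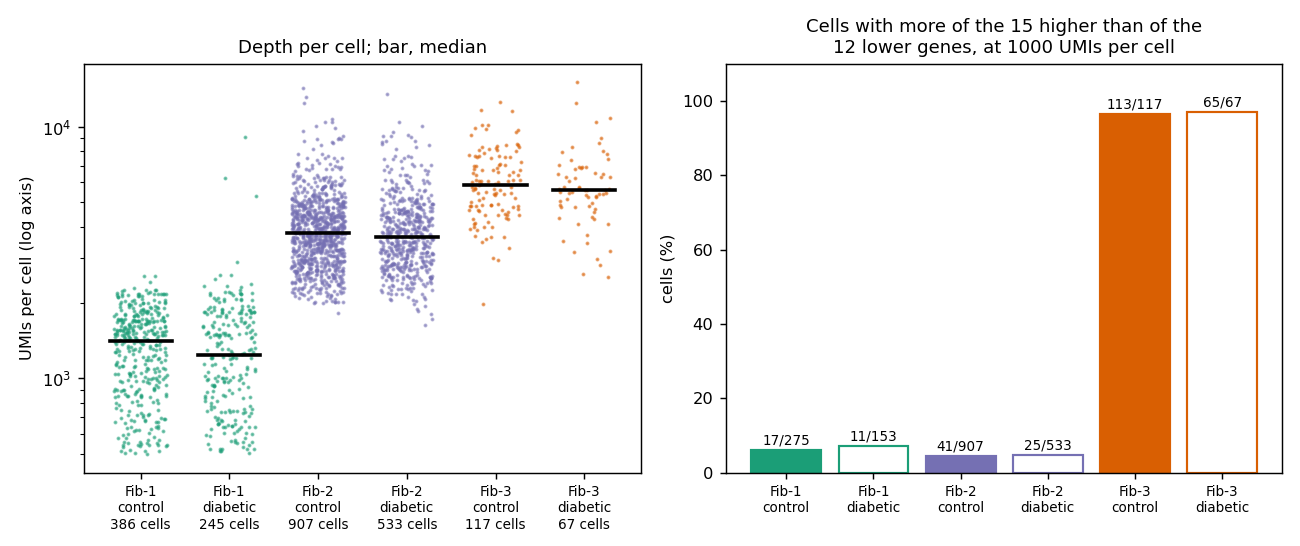
Left, UMIs per cell (log axis) for each fibroblast class and library, 1 point per cell with the median as a bar; right, the percentage of cells in which, after thinning to 1000 UMIs, more of the 15 genes named as higher than of the 12 named as lower in Fib-3 were detected. Fib-3 has the highest medians (5882 and 5574 UMIs), and 113 of its 117 control and 65 of its 67 diabetic cells lean to the higher genes.

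Apoe, deleted in all mice, had 1 UMI in control and 2 UMIs in diabetic Fib-3; a 3' count can lie outside a deleted stretch, so this checks no label. The class name was checked against markers. All 10 listed fibroblast markers were detected in Fib-3 in both libraries. Dcn, which encodes the collagen-binding proteoglycan decorin, had 14138 counts per 1000000 UMIs (CPM) in control and 11948 CPM in diabetic Fib-3 and was present in every cell. Col1a1, a type I collagen chain, had 1429.7 and 1045 CPM, and Ly6a had 4199 and 3646 CPM. Defining genes of other cell types were rare. Smooth muscle markers summed to 141 and 257 CPM with Myocd and Des at 0, endothelial markers to 37 and 14 UMIs with 6 and 7 of 9 at 0, mesothelial markers to 17 and 5 UMIs with 8 and 9 of 10 at 0, and mast cell and cardiomyocyte markers were all at 0. Pericyte markers summed to 94.8 and 242 CPM.

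A few cells stood apart in these lists. Of 330 macrophage marker UMIs in control Fib-3, 1 cell held 181, while diabetic Fib-3 held 15 with Adgre1, C1qc and Mrc1 at 0. Haemoglobin genes took 0.0113% of control and 2.04% of diabetic Fib-3 UMIs, and 1 diabetic cell (52.3% of its 14975 UMIs) held most of them. The median diabetic cell had 0.0578%. Chondrocyte markers summed to 12 and 48 UMIs and cycling markers to 40 and 0 UMIs, 37 of the 40 in 1 cell.

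Fib-3 made up 3.82% of annotated control cells (exact Clopper-Pearson interval 3.17% to 4.56%) and 2.65% of diabetic cells (2.06% to 3.36%), a difference of -1.17 percentage points (Newcombe interval -2.10 to -0.230). Among fibroblasts alone it was 8.30% of 1410 control and 7.93% of 845 diabetic cells, a difference of -0.369 points with an interval of -2.63 to 2.05 that includes no difference. Sorting, digestion and pooling can set such shares, and neither value says how they vary between mice.

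To find what separates Fib-3 from the other fibroblasts, UMIs were summed per class and library, and Fib-3 was divided by Fib-1 and by Fib-2 within each library. A gene was called where all 4 ratios differed by at least 2-fold in the same direction with all 4 intervals past 1. Of 2933 genes with at least 30 UMIs in the 2 sums of each ratio, 131 (4.47%) were called higher and 139 (4.74%) lower in Fib-3. The 15 strongest on the higher side and the 12 strongest on the lower side, ranked by the interval bound nearest to 1, are drawn in the plot of levels in the 3 fibroblast classes. Genes high in Fib-3 encoded fibronectin, enzymes that make sugar precursors of hyaluronan, surface proteins and secreted signals, and genes low in Fib-3 encoded matrix proteins such as matrix Gla protein and fibromodulin.

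**Figure D2:**
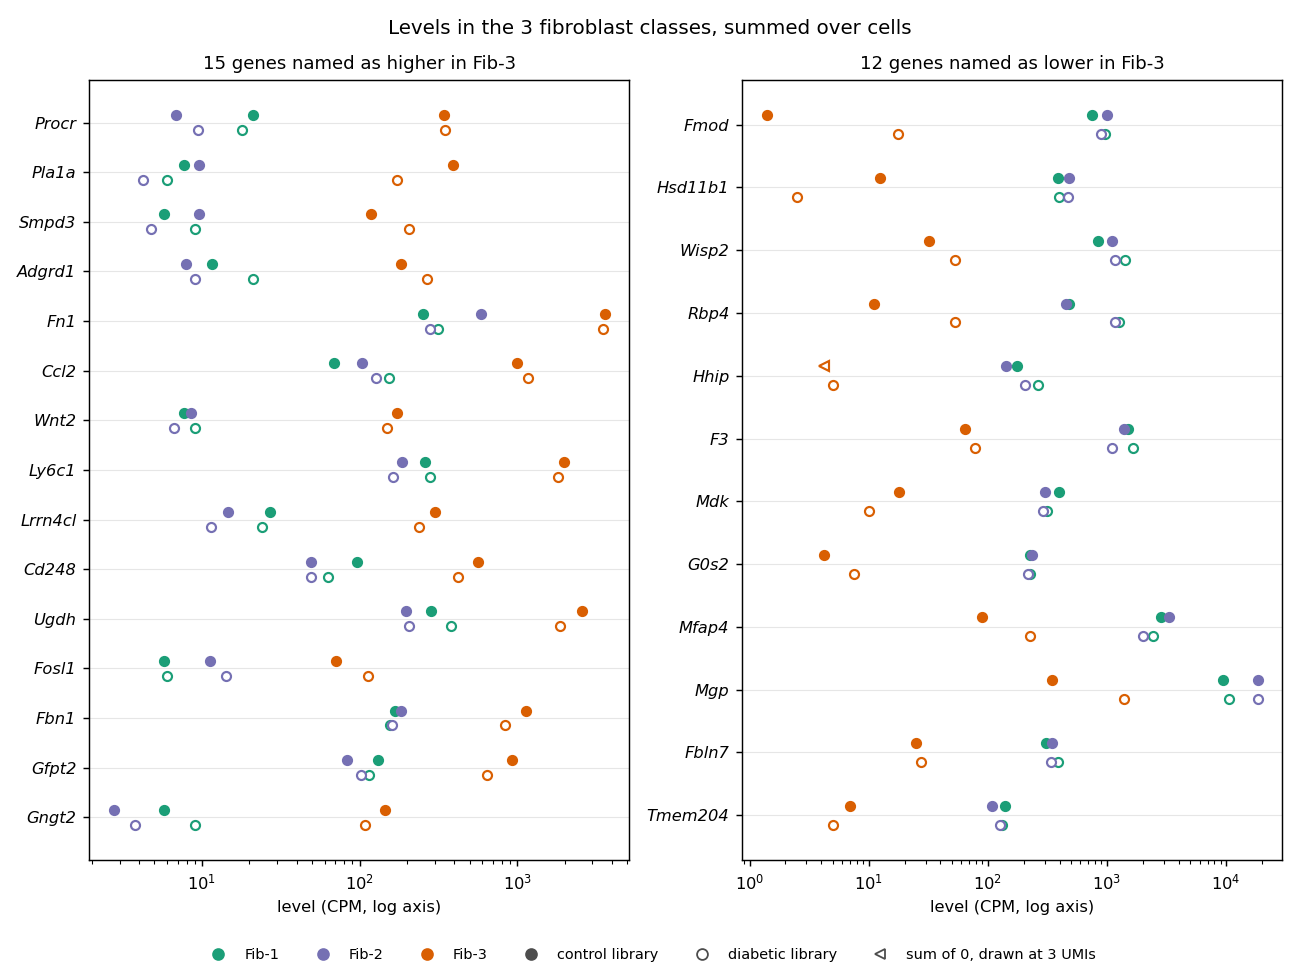
Levels (CPM, log axis) of the 15 genes named as higher (left) and the 12 named as lower (right) in Fib-3, for each class (colour) and library (filled, control; open, diabetic). On the left both Fib-3 values lie above all 4 values of the other classes, and on the right below them, which the choice of these genes fixes; Hhip had a sum of 0 in control Fib-3 and is drawn at 3 UMIs.

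Among matrix genes on the higher side, Fn1, which encodes fibronectin (chr1:71585473-71653280, GRCm38.p6), stood at 3595 CPM in control and 3495 CPM in diabetic Fib-3. Fib-1 had 253 and 313 CPM, and Fib-2 had 591 and 280.3 CPM. Control Fib-3 exceeded Fib-1 by a ratio of 14.2 (11.9 to 17.1) and diabetic Fib-3 by 11.2 (9.14 to 13.8), and the ratios over Fib-2 were 6.08 (5.74 to 6.44) and 12.5 (11.3 to 13.7). Fn1 UMIs were seen in 115 of 117 and 66 of 67 Fib-3 cells, so the difference was spread over the class. After each cell was thinned to 1000 UMIs, 85.5% and 83.6% of Fib-3 cells had Fn1, against 13.1% and 12.4% of Fib-2 and 2.21% and 8.04% of macrophages. Fbn1, the fibrillin of elastic microfibrils, was at 1139.9 and 836 CPM in Fib-3 and between 157 and 183 CPM in the 4 sums of the other classes.

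Enzymes of nucleotide sugars formed a second set. Ugdh (chr5:65413207-65435842), which oxidises UDP-glucose to the UDP-glucuronate of hyaluronan, was at 2567 and 1866 CPM in Fib-3, 284 and 379 CPM in Fib-1 and 196 and 207 CPM in Fib-2. It was detected in 116 of 117 control and 62 of 67 diabetic Fib-3 cells. Gfpt2, which commits fructose 6-phosphate to the hexosamine pathway, was at 931 and 639.6 CPM, with ratios over Fib-1 of 7.14 (5.56 to 9.30) and 5.59 (3.96 to 8.09) and over Fib-2 of 11.2 (9.77 to 12.9) and 6.23 (5.18 to 7.51). In both libraries both enzymes were thus far above the other classes. Uap1, which makes UDP-N-acetylglucosamine in the same pathway, had 1429.7 and 659.7 CPM against 150.2 to 164 CPM in the other classes.

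Several surface proteins were called. Procr, the endothelial protein C receptor, was at 341 and 350.0 CPM in Fib-3 against 21.1 and 18.1 CPM in Fib-1 and 6.88 and 9.46 CPM in Fib-2. Among all classes it was highest in endothelial cells, at 558 and 456 CPM, while 6 and 7 of the 9 endothelial markers were at 0 in Fib-3. Cd248, the stromal surface protein endosialin, was at 569 and 421 CPM against 49.0 to 95.9 CPM elsewhere. Adgrd1, an adhesion G protein-coupled receptor, was at 184 and 267 CPM. Ly6c1, a GPI-anchored relative of Ly6a, was at 1972 and 1821 CPM, and its 4 ratios ran from 6.50 (5.23 to 8.16) over Fib-1 in diabetic to 11.1 (9.78 to 12.7) over Fib-2 in diabetic cells. Ly6a itself was called too, with ratios from 4.04 (3.56 to 4.59) to 5.12 (4.76 to 5.51). Lrrn4cl had 299.6 and 237 CPM. Procr and Adgrd1 kept the call in all but 2 of 15 processing alternatives.

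Secreted and signalling genes made up the rest of the named higher set. Pla1a, a phosphatidylserine-specific phospholipase, was at 392 and 174 CPM in Fib-3 and under 10 CPM in each sum of Fib-1 and Fib-2. Wnt2, a Wnt ligand, was at 173 and 149 CPM, and Smpd3, a neutral sphingomyelinase, at 118 and 206 CPM. These 3 genes had their highest level of all classes in Fib-3 in both libraries. Gngt2, a G protein gamma subunit, was at 145 and 108 CPM but was highest in monocytes (646 and 1244 CPM). Ccl2, the monocyte chemoattractant, was at 991 and 1166 CPM in Fib-3, against 69.0 to 154 CPM in the 4 other fibroblast sums and 1986 and 1290 CPM in macrophages. Its UMIs came from 29 of 117 and 23 of 67 Fib-3 cells, so most cells of the class had none.

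On the lower side, Mgp (chr6:136872435-136875823), which encodes the calcification inhibitor matrix Gla protein, was at 343 CPM in control and 1387 CPM in diabetic Fib-3. Fib-1 had 9473 and 10566 CPM and Fib-2 had 18514 and 18454 CPM. The ratio over Fib-2 was 0.0185 (0.0163 to 0.0210) in control and 0.0752 (0.0690 to 0.0818) in diabetic cells. Thinned to 1000 UMIs, 19.7% and 31.3% of Fib-3 cells had Mgp, against 96.9% and 95.7% of Fib-2, and 16.7% and 12.6% of macrophages, a cell type that should lack it. The control share in Fib-3 was thus close to that of macrophages at one depth.

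Fmod, which encodes the collagen-binding proteoglycan fibromodulin, had 1 UMI in control and 7 UMIs in diabetic Fib-3. That is 1.39 and 17.6 CPM, against 754 and 966 CPM in Fib-1 and 1003 and 889.7 CPM in Fib-2. Its ratio over Fib-2 was 0.00139 (3.52e-05 to 0.00775) in control cells. Fmod was thus nearly undetected in Fib-3 and abundant in both other classes. Mfap4, a microfibril-associated protein, was at 89.2 and 224 CPM against 2013 to 3348 CPM elsewhere. Wisp2, a CCN family matricellular protein, was at 32.1 and 52.9 CPM against 836 to 1418 CPM. Fbln7, a fibulin, had 25.1 and 27.7 CPM.

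Regulators and signals low in Fib-3 included F3 (chr3:121723537-121735052), the tissue factor that starts blood clotting, at 64.1 and 78.1 CPM against 1101 to 1653 CPM in the other classes. Hsd11b1, which reactivates glucocorticoids, had 9 and 1 UMIs in Fib-3 and 389 to 478 CPM elsewhere. Rbp4, the retinol carrier, was at 11.1 and 52.9 CPM against 456 to 1261 CPM. Hhip, which binds hedgehog ligands, had 0 and 2 UMIs in Fib-3. Against a floor of 3 UMIs for the control sum, it was at most 0.0237 of Fib-1 and 0.0297 of Fib-2. Mdk, the growth factor midkine, G0s2, an inhibitor of fat breakdown, and Tmem204 were each at 4.18 to 18.1 CPM in Fib-3 and at 109 to 393 CPM in the other classes. Fib-3 lay below both other classes in each library for all of these genes, as their choice requires.

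Fib-1 and Fib-2 were also compared with Fib-3 one at a time. Against Fib-1 in control cells, 435 of 4479 genes (9.71%) were called higher and 468 (10.4%) lower in Fib-3, and in diabetic cells 277 of 2954 (9.38%) and 287 (9.72%). Against Fib-2, 530 of 8500 (6.24%) were higher and 963 (11.3%) lower in control cells, and 351 of 6927 (5.07%) and 703 (10.1%) in diabetic cells. Among 2933 genes tested against Fib-1 in both libraries, 193 higher calls were shared, 65.2% of the control and 70.2% of the diabetic calls. Of the lower calls 185 were shared, 58.5% and 66.3%. Among 6885 genes tested against Fib-2 in both libraries, 239 higher calls were shared, 58.0% and 68.9%. The shared lower calls were 430, 52.1% and 62.2%. Against each class 1 gene called lower in control cells was called higher in diabetic cells.

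Genes ranked first against one class were mostly those already named. Emilin2, an elastin interface protein, was added by the comparison with Fib-2, at 216 and 181 CPM in Fib-3 against 6.60 and 6.62 CPM. Spp1, which encodes osteopontin, separated the classes in the other direction: 5 and 1 UMIs in Fib-3, 40.3 and 96.3 CPM in Fib-1, and 1257 and 1404 CPM in Fib-2. Its ratio of Fib-3 over Fib-2 was 0.00554 (0.00180 to 0.0129) in control cells. Spp1 is thus near 0 in Fib-3 and at its highest fibroblast level in Fib-2.

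Promoters were read because the study's question concerns AP-1, which binds the letters TGACTCA. The 250 bases before the annotated start were searched on both strands in RefSeq (GRCm38.p6). The letters were found in 5.16% of 27025 genes with such a window, in 4.37% of 2311 genes tested between the classes, in 12 of 89 genes (13.5%) called higher in Fib-3 and in 11 of 101 (10.9%) called lower. The share is thus above that of all tested genes on both sides, so it does not set higher apart from lower genes. Of the 15 named higher genes 6 had a window, and Procr and Gfpt2 held a match. Of the 12 named lower genes 7 had one, and F3 and Rbp4 held a match. A match is only a string of letters and no evidence of binding.

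The windows of Procr, Gfpt2 and F3 are printed since they are the named genes on either side with a match outside the gene's RefSeq span. The strand is plus for each, the stretch is given 5′ to 3′ up to the base before the gene, and capitals mark the match, which in F3 is the reverse complement TGAGTCA. Procr is chr2:155750967-155751124 with the match starting 62 bases before the gene, Gfpt2 is chr11:49793905-49794154 with 223 bases, and F3 is chr3:121723287-121723536 with 135 bases.
Procr: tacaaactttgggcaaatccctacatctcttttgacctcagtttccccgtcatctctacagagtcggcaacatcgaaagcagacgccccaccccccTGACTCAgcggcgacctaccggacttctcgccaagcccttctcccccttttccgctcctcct
Gfpt2: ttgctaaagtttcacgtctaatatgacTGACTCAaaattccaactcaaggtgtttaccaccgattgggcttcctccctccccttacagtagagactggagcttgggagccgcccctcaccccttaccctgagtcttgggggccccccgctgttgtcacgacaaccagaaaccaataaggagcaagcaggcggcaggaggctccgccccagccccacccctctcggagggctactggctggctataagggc
F3: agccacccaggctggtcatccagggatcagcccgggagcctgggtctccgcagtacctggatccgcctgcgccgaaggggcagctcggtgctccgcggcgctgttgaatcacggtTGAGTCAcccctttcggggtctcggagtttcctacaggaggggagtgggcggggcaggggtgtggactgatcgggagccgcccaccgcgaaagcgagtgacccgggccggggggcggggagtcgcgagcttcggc

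Gene lists, chosen for aortic fibroblasts, group the remaining genes. A member can reach 30 UMIs in a ratio through its Fib-3 sum alone, so the tested members can lean to genes high in Fib-3. Counts of called members therefore describe the tested genes and are no test of a list. Of 20 genes of the universal adventitial fibroblast, 15 had enough UMIs in all 4 ratios, 13 were called higher and 0 lower. Over Fib-1 their median log2 ratio was 2.57 (control) and 2.04 (diabetic), and over Fib-2 it was 2.70 and 2.16, where the medians of all genes tested were -0.05, -0.04, -0.10 and -0.14. Pi16, a secreted peptidase inhibitor that marks these cells, was at 8431 and 5854 CPM in Fib-3, 2888 and 1918 CPM in Fib-1 and 2573 and 1447 CPM in Fib-2. Dpp4, a dipeptidyl peptidase and their other usual marker, had 67 UMIs in control and 13 UMIs in diabetic Fib-3. Diabetic Fib-1 had 0 Dpp4 UMIs, and too few were counted for all 4 ratios.

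Further members called higher were Cd55, a complement inhibitor, at 457 and 181 CPM against 19.9 to 51.2 CPM, and Sema3c, a semaphorin, at 349.8 and 322 CPM against 46.8 to 78.3 CPM. Ackr3, a scavenging receptor for the chemokine Cxcl12, was at 982 and 534 CPM against 128 to 203 CPM. Anxa3, Efemp1, Clec3b and Creb5 were also called, beside Cd248, Ly6c1, Fbn1, Wnt2 and Emilin2. Mfap5 and Cd34, the members tested but not called, had ratios over Fib-1 in control cells of 1.83 (1.71 to 1.96) and 1.98 (1.72 to 2.27), just under the 2-fold limit. Pi16 and Clec3b were shared markers by level, being at 879 CPM or more in every fibroblast sum, and in Fib-3 they were 2.12 to 4.05 times as high.

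All 7 hyaluronan genes with enough UMIs, of 13 listed, were called higher in Fib-3. The other listed members were not tested, and a member high in Fib-3 reached the UMI limit more easily. Has1, a hyaluronan synthase, was at 1118 and 735 CPM against 133 to 235 CPM in the other classes. Tnfaip6, which loads heavy chains onto hyaluronan, was at 1544 and 1329.5 CPM against 158 to 349 CPM. The synthase and the cross-linker thus stood together with Ugdh above both other classes. Ptx3, a pentraxin that binds the Tnfaip6 product, had 103 and 85.6 CPM, from 17 of 117 and 12 of 67 cells. Cd44, the hyaluronan receptor, was at 308 and 353 CPM, Vcan, the hyaluronan-binding proteoglycan versican, at 153 and 108 CPM, and Itih5, a heavy chain relative, at 146 and 121 CPM. Has1 was detected in 41.9% and 32.8% of Fib-3 cells thinned to 1000 UMIs, against 7.83% and 7.69% of Fib-2 and 0.402% and 0.503% of macrophages.

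**Figure D3:**
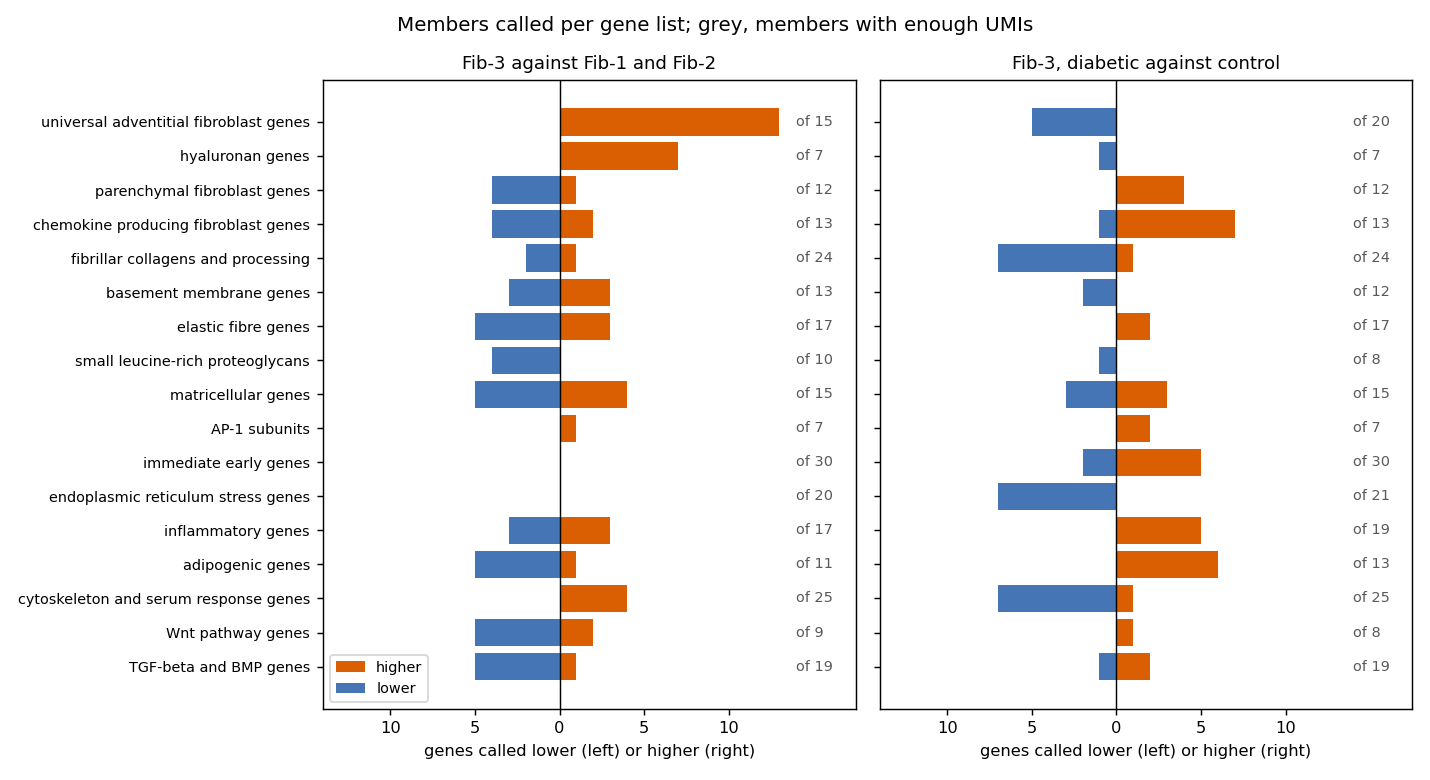
Number of list members called higher (right of 0) or lower (left of 0), with the number that had enough UMIs in grey, for Fib-3 against both other classes (left panel) and for diabetic against control Fib-3 (right panel). The left panel has 13 of 15 universal adventitial and 7 of 7 hyaluronan genes on the higher side. Members high in Fib-3 reach the UMI limit of that panel more easily. The right panel has 7 of 21 endoplasmic reticulum stress genes and 7 of 24 collagen genes on the lower side.

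Of 12 tested genes of parenchymal fibroblasts (15 listed), 4 were lower in Fib-3 and 1, Itih5, was higher. The lower ones were Mgp, Lum (lumican, 605 and 541 CPM against 2128 to 3485 CPM), Col15a1 (a basement membrane zone collagen, 17 and 17 UMIs) and Smoc2 (a matricellular protein, 41.8 and 73.0 CPM against 462 to 778 CPM). The list's median log2 ratio over Fib-2 was -1.66 in control and -1.05 in diabetic cells. Of 10 tested small leucine-rich proteoglycans (11 listed), 4 were lower and 0 higher: Fmod, Lum, Omd (osteomodulin) and Podn (podocan). Dcn, of the same family, was not called, with ratios of 0.612 (0.589 to 0.636) to 0.727 (0.707 to 0.747).

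Collagens moved less. Of 24 tested fibrillar collagen and processing genes (25 listed), Loxl2, a lysyl oxidase homologue, was higher (138 and 116 CPM against 24.6 to 57.5 CPM), and Col1a1 and Lox, the lysyl oxidase that cross-links collagen and elastin, were lower. Col1a1 ratios ran from 0.364 (0.341 to 0.388) to 0.457 (0.422 to 0.494), and its call ends with TMM scaling. Col1a2 and Col3a1 were not called, at ratios of 0.453 to 0.586 and 0.522 to 0.899. The list's median log2 ratio was -0.51 over Fib-1 and -0.57 over Fib-2 in control cells, and -0.49 and -0.17 in diabetic cells.

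Of 17 tested elastic fibre genes (18 listed), 3 were higher and 5 lower. The microfibril scaffold gene Fbn1 and the fibulins Fbln2 and Efemp1 were higher. Eln, which encodes tropoelastin, was lower at 110.1 and 181 CPM against 677 to 1422 CPM, as were Fbln1, Fbln5, Mfap4 and Lox. Matricellular genes split too, with Fn1, Tnxb (tenascin X), Postn (periostin) and Vcan higher, and Wisp2, Mgp, Fbln7, Smoc2 and Ctgf (a CCN family protein) lower, among 15 tested of 22 listed. The Postn call, with a lowest ratio of 2.03, ended in 9 of 15 alternatives, among them without its top cell and with equal weight per cell, while the calls of Fn1 and Tnxb ended in 0. Tnxb was at 936 and 629.5 CPM against 105 to 263 CPM, and Ctgf at 85.0 and 93.2 CPM against 418 to 469.6 CPM. Basement membrane genes, 13 tested of 15, had 3 higher (Lama4, Lamb1, Nid1) and 3 lower (Col4a5, Col15a1, Lama2). The Lamb1 call ended without its top cell, and the lowest Nid1 ratio was 1.03 without cells holding UMIs of other cell types.

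Signalling lists were also divided. Of 9 tested Wnt pathway genes (24 listed), the ligand Wnt2 and the secreted inhibitor Sfrp4 (3825 and 5487 CPM against 759.7 to 1285 CPM) were higher. The secreted inhibitors Sfrp2 (123 and 133 CPM against 517 to 882 CPM) and Dkk3, the ligand Wnt5a, the receptor Fzd1 and Wisp2 were lower. Of 19 tested TGF-beta and BMP genes (32 listed), the co-receptor Tgfbr3 was higher (210.4 and 184 CPM), and the ligands Bmp4 (18.1 and 12.6 CPM against 192 to 223 CPM), Tgfb3 and Gdf10 and the responsive genes Tgfbi and Id2 were lower.

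Among 13 tested genes of chemokine-producing fibroblasts (23 listed), Ccl2 and the macrophage growth factor Csf1 (107 and 149 CPM) were higher in Fib-3. Cxcl12, the chemokine that retains leukocytes (188 and 385 CPM against 773 to 906 CPM), Ccl19, Cxcl16 and the B cell factor Tnfsf13b were lower. Without cells holding UMIs of other cell types Csf1 turned to 0.828 and Tnfsf13b to 1.60, and the Cxcl16 call ended with TMM scaling. Inflammatory genes, 17 tested of 37, had 3 higher (Tnfaip6, Ccl2, Csf1) and 3 lower (the adhesion molecules Icam1 and Vcam1, and Irf1). The adipogenic list, 11 tested of 21, holds genes that do not all promote fat cell formation. Of these, Ebf2, a transcription factor of early adipocyte precursors, was higher at 128 and 126 CPM, and F3, G0s2, Fmo2, Gdf10 and Icam1 were lower. Of 25 tested cytoskeletal genes (26 listed), S100a6, S100a10, Zyx and Tubb2b were higher and 0 lower. S100a6, a calcium-binding protein, was at 7579 and 7046 CPM against 2182 to 2767 CPM. Of 30 immediate early genes and 20 endoplasmic reticulum stress genes tested, 0 were called.

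AP-1 subunits did not move as 1 group between classes. Fosl1, the Fos family member Fra-1, was the 1 of 7 called higher in Fib-3, at 71.1 and 113 CPM against 5.75 to 14.2 CPM, from 32 of 117 and 19 of 67 cells. Its highest level among all classes was in Fib-3 in both libraries. The Fosl1 class call ended in 3 of 15 alternatives: thinned cells, at least 100 UMIs, and without cells holding UMIs of other cell types. Its lowest ratio over the alternatives was 3.81. Fos had 1244 and 1647 CPM in Fib-3 against 2911 to 4239 CPM elsewhere, with ratios of 0.294 (0.274 to 0.314) to 0.566 (0.512 to 0.625) that missed the 2-fold limit in 1 of 4 cases. Jun had 188 and 309.7 CPM against 370.2 to 566 CPM, with ratios of 0.333 to 0.711. Fosb, Junb, Jund and Fosl2 had ratios between 0.473 and 1.92 over the 4 comparisons. Fos and Jun thus had their lower fibroblast values in Fib-3, and Fosl1 its higher one.

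The pattern held cell by cell. After thinning to 1000 UMIs, more of the 15 higher than of the 12 lower named genes were detected in 113 of 117 control Fib-3 cells (96.6%) and in 65 of 67 diabetic ones (97.0%). The median Fib-3 cell had 5 of the higher and 0 of the lower genes in both libraries. The same held for 41 of 907 control (4.52%) and 25 of 533 diabetic (4.69%) Fib-2 cells, and for 17 of 275 (6.18%) and 11 of 153 (7.19%) Fib-1 cells deep enough to thin. 111 control and 92 diabetic Fib-1 cells had fewer than 1000 UMIs and were left out. The genes were chosen on these cells, so the shares describe how uniform the class is and are no test of it.

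Within Fib-3 some genes varied far more than counting would give. Over 911 genes with at least 10 thinned UMIs in each library, the median ratio of variance to mean was 1.09 in both. Mt1, a metallothionein, had a ratio of 11.96 in control and 10.7 in diabetic cells, with a median of 2 and 3 thinned UMIs and up to 38 in 1 cell of each library. Sfrp4 had ratios of 10.6 and 18.1. The median cell had 1 and 2 Sfrp4 UMIs of 1000, the highest 35 and 61, and 48 of 117 control and 20 of 67 diabetic cells had 0. Pi16 ranged from 0 to 37 UMIs in control (median 5) and 0 to 34 in diabetic cells (median 4), a ratio of 11.1 and 7.93. Sfrp4 and Pi16 are among the genes called higher in Fib-3, as are Ccl2 (14.6 and 7.33) and Tnfaip6 (5.05 and 5.58). Ccl2 sat in few cells, with 0 in 94 of 117 and 51 of 67 thinned cells and up to 26 and 12 UMIs in 1 cell. Igfbp5, Sparc, Gsn, Malat1 and Mt2 completed the 10 highest.

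The second comparison is diabetic against control within Fib-3, where a gene was called at 1.5-fold with its interval past 1. Of 4026 genes with at least 30 UMIs in both sums together, 167 (4.15%) were called higher and 265 (6.58%) lower in the diabetic cells. This split depends on scaling: with totals that leave out mitochondrial, ribosomal protein and haemoglobin genes, 266 were higher and 174 lower, since the median log2 ratio of all genes moved from -0.08 by 0.11. Values below are on plain totals. Many calls rested on few cells. Of the nameable calls, 59 of 157 higher and 218 of 264 lower genes were detected in at least 10% of cells with no cell over 10% of the UMIs. Higher genes were judged in the 67 diabetic and lower genes in the 117 control cells. A single cell passes 10% more easily among fewer cells, so these shares cannot be set against each other. Dlk1, Alas2 and Saa3 were called higher from UMIs in 1 diabetic cell each. C1qc, Lyz2 and C1qa, all macrophage genes, were called lower, and 1 control cell held 69.8%, 53.8% and 51.0% of their control UMIs.

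**Figure D4:**
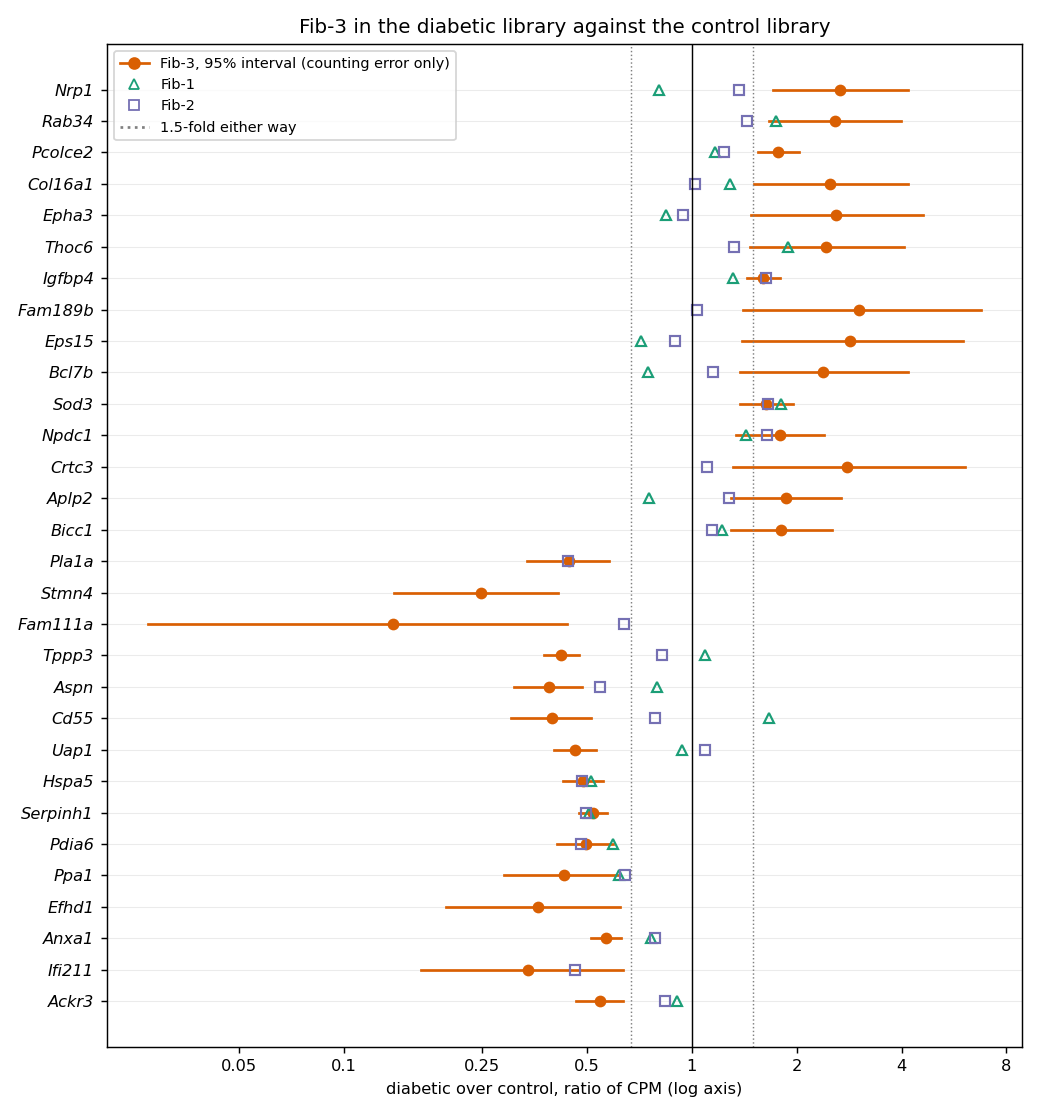
Ratio of diabetic over control CPM (log axis) in Fib-3 with its 95% interval for counting error, for the 15 genes named as higher and the 15 as lower, with the ratios in Fib-1 (triangles) and Fib-2 (squares) where these had enough UMIs. Hspa5 and Serpinh1 lie at the same place in all 3 classes, near 0.5, while Tppp3 is at 0.422 in Fib-3, 1.09 in Fib-1 and 0.823 in Fib-2.

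Genes that were higher in diabetic Fib-3 and spread over cells included surface receptors and secreted proteins. Pcolce2, an enhancer of procollagen C-propeptide cleavage, went from 605 CPM in control to 1070.2 CPM in diabetic Fib-3, a ratio of 1.77 (1.54 to 2.03), against 1.16 (0.940 to 1.44) in Fib-1 and 1.24 (1.13 to 1.36) in Fib-2. It was detected in 107 of 117 and 64 of 67 cells. Nrp1, the co-receptor for semaphorins and VEGF, went from 50.2 to 133 CPM, a ratio of 2.66 (1.71 to 4.18), and Epha3, an ephrin receptor, from 32.1 to 83.1 CPM, a ratio of 2.59 (1.48 to 4.62). Both rest on at most 53 UMIs per library, and in Fib-1 and Fib-2 their ratios lay between 0.803 and 1.37. Igfbp4, a binding protein of insulin-like growth factors, went from 949 to 1523 CPM, a ratio of 1.61 (1.44 to 1.79), and Sod3, the extracellular superoxide dismutase, from 380.4 to 622 CPM, a ratio of 1.63 (1.37 to 1.95). In Fib-2 these were 1.63 (1.54 to 1.74) and 1.65 (1.54 to 1.77).

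Others on the higher side were Col16a1, a fibril-associated collagen, at 2.49 (1.51 to 4.17), Rab34, a small GTPase, at 2.57 (1.66 to 4.00), Aplp2, an amyloid precursor relative, at 1.86 (1.30 to 2.68), Bicc1, an RNA-binding protein, at 1.81 (1.29 to 2.53), and Npdc1 at 1.79 (1.34 to 2.39). The low-count genes Thoc6, Bcl7b, Eps15, Crtc3 and Fam189b had ratios from 2.39 to 3.01 with 12 to 39 UMIs per sum. Fam189b turned to 0.582 when cells were thinned.

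Among genes lower in diabetic Fib-3, Tppp3, a tubulin-binding protein, went from 2237 CPM in control to 944 CPM, a ratio of 0.422 (0.376 to 0.473), and was still above Fib-1 and Fib-2 in both libraries (206 to 268 CPM). Its ratio was 1.09 (0.823 to 1.44) in Fib-1 and 0.823 (0.732 to 0.923) in Fib-2. Pla1a went from 392 to 174 CPM (0.444 (0.336 to 0.579)), Cd55 from 457 to 181 CPM (0.397 (0.303 to 0.513)), Uap1 from 1429.7 to 659.7 CPM (0.461 (0.401 to 0.529)) and Ackr3 from 982 to 534 CPM (0.543 (0.464 to 0.634)). All 5 were also called higher in Fib-3 than in both other classes; the class ratios use the same control sum, so the values stand side by side only. Stmn4, of the microtubule-binding stathmins, went from 173 to 42.8 CPM (0.248 (0.140 to 0.413)) and had 0 UMIs in diabetic Fib-1 and Fib-2. Aspn, the small proteoglycan asporin, went from 637 to 247 CPM (0.387 (0.308 to 0.483)), and 35.7% of its diabetic UMIs were in 1 cell.

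Chaperones of the endoplasmic reticulum were lower as well. Hspa5, the chaperone BiP, went from 1451 to 708 CPM in Fib-3, a ratio of 0.488 (0.426 to 0.557). Serpinh1, the collagen chaperone HSP47, went from 2899.9 to 1511 CPM, a ratio of 0.521 (0.475 to 0.571), and Pdia6, a protein disulphide isomerase, had 0.495 (0.411 to 0.594). The same genes had ratios of 0.514, 0.506 and 0.593 in Fib-1 and 0.485, 0.496 and 0.479 in Fib-2, so the fall was seen in each fibroblast class. Anxa1, annexin A1, went from 2274 to 1292 CPM (0.568 (0.513 to 0.628)). Ppa1, Efhd1, Ifi211 and Fam111a were lower at 0.428, 0.361, 0.339 and 0.139, the last from 39 and 3 UMIs.

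By lists, 7 of 21 tested endoplasmic reticulum stress genes (27 listed) were lower and 0 higher in diabetic Fib-3, with a median log2 ratio of -0.46 against -0.08 for all genes: Hspa5, Hsp90b1, Calr, Pdia6, Sdf2l1, Creld2 and Manf. In Fib-1, where 3.45% of all genes tested were called higher and 5.26% lower, 8 of 20 were lower, and in Fib-2 (5.43% and 3.62%) 2 of 26 were higher and 7 lower. Of 24 fibrillar collagen and processing genes, 7 were lower (Serpinh1, Sparc, Pcolce, Col5a1, Col6a2, P4ha1, P4ha2) and 1, Pcolce2, higher, with a median of -0.40. Fib-1 had 5 of 24 lower and a median of -0.32, and Fib-2 11 of 25 lower and a median of -0.56. Col1a1, Col1a2 and Col3a1 had ratios of 0.731 (0.651 to 0.820), 0.792 (0.733 to 0.856) and 0.763 (0.701 to 0.830), which missed the limit. Of 25 cytoskeletal genes, 7 were lower (Actg1, Anxa1, Anxa2, S100a11, Tuba1a, Tuba1b, Tubb2a) and 1, S100a4, higher, with a median of -0.36. In Fib-1 and Fib-2 the median of that list was -0.02 and 0.11. S100a4, a calcium-binding protein, went from 212 to 720.2 CPM, a ratio of 3.40 (2.78 to 4.17), with 28.3% of its diabetic UMIs in 1 cell.

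Of the 20 universal adventitial genes, 5 were lower (Dpp4, Cd55, Efhd1, Ackr3, Uchl1) and 0 higher, with a median of -0.35. The fall was not particular to this list. Of all 131 genes called higher in Fib-3 than in both other classes, 17.6% were lower and 2.29% higher, with a median of -0.25. Class and diabetic ratios use the same Fib-3 sums, so the 2 comparisons stand side by side only. Pi16 went from 8431 to 5854 CPM, a ratio of 0.694 (0.662 to 0.729) short of the limit, and its ratio was 0.664 (0.604 to 0.729) in Fib-1 and 0.562 (0.540 to 0.586) in Fib-2. Cd248, Fbn1 and Mfap5 had 0.740 (0.614 to 0.888), 0.733 (0.644 to 0.834) and 0.775 (0.726 to 0.828). Of 7 hyaluronan genes Has1 was lower, at 0.658 (0.573 to 0.753), a call that ends without mitochondrial, ribosomal protein and haemoglobin genes in the totals. Ugdh had 0.727 (0.667 to 0.792) and Gfpt2 0.687 (0.592 to 0.795). Postn, a matricellular gene, went from 294 to 101 CPM (0.343 (0.238 to 0.482)).

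Of 12 parenchymal genes, 4 were higher (Mgp, Smoc2, Apod, Penk) and 0 lower, with a median log2 ratio of 0.27. Here too the direction was not particular to the list. Of 139 genes called lower in Fib-3 than in both other classes, 94 had enough Fib-3 UMIs. A gene near 0 in control Fib-3 reaches that limit mainly through its diabetic sum. Of the 94, 26.6% were higher and 2.13% lower, with a median of 0.32. The share higher was 21.9% without each gene's top cell (median 0.21) and 10.0% of 20 genes when cells were thinned (median 0.10). These ratios also share the Fib-3 sums. The calls of Smoc2, Apod and Penk each ended without the gene's top cell (ratios of 1.54, 1.55 and 1.68 with intervals that include 1), and Penk turned to 0.984 without cells holding UMIs of other cell types. Mgp went from 343 to 1387 CPM, a ratio of 4.05 (3.48 to 4.72), with 22.3% of diabetic UMIs in 1 cell, and the call held in all 15 alternatives. Mgp was at 1.12 (1.07 to 1.16) in Fib-1 and 0.997 (0.984 to 1.01) in Fib-2, and in macrophages it went from 300.4 to 738 CPM. Mgp was abundant in most stromal classes of both libraries, and the part of RNA from other cells in its Fib-3 value was not tested. Mfap4 (2.51 (1.80 to 3.52)) and Eln (1.65 (1.18 to 2.30)) were the 2 of 17 elastic fibre genes called higher. Mfap4 had 38.2% of its diabetic UMIs in 1 cell. It stayed called without that cell (1.82) but turned to 0.806 when thinned and to 0.434 without cells holding UMIs of other cell types.

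Of 13 chemokine genes, 7 were higher and 1, Ccl11, lower, with a median of 0.60. Cxcl12 went from 188 to 385 CPM, a ratio of 2.05 (1.61 to 2.60), and Ccl7 from 740.0 to 1120.5 CPM, a ratio of 1.51 (1.33 to 1.72). Ccl7 was also called higher in Fib-1 (2.12 (1.69 to 2.65)) and Fib-2 (1.78 (1.54 to 2.06)), and its Fib-3 call ended without its top cell (1.31) or without the 5% of cells with most UMIs. The Ccl11 call ended in 8 of 15 alternatives. Ccl19 and Cxcl2 were each mostly in 1 diabetic cell, which held 60.7% and 93.1% of their UMIs, and without its top cell Cxcl2 turned to 0.824. Il1r1, Cxcl16 and Tnfsf13b rested on at most 25 UMIs per sum. Ccl2 had 1.18 (1.04 to 1.32) and was not called. Of 13 genes of the adipogenic list, 6 were higher and 0 lower (median 0.78). Its members do not all promote fat cell formation, so this count gives no direction for that process. Of 19 inflammatory genes 5 were higher and 0 lower (median 0.40). Each list's count includes 1 gene, Dlk1 or Saa3, with every diabetic UMI in 1 cell. The adipogenic median was 0.13 in Fib-1 and -0.11 in Fib-2, and the inflammatory one 0.19 and 0.39.

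The 7 AP-1 subunits had ratios of diabetic over control above 1 in Fib-3, with a median log2 ratio of 0.41 against -0.08 for all genes. The other classes had like medians, 0.34 over 6 subunits in Fib-1, with Fosl2 called higher, and 0.42 over 7 in Fib-2, with Fosl2, Junb and Jund called higher. Jun went from 188 to 309.7 CPM, a ratio of 1.65 (1.28 to 2.12), and was called. Fosl1 went from 71.1 to 113 CPM, a ratio of 1.59 (1.04 to 2.43), and was called, but 31.1% of its 45 diabetic UMIs were in 1 cell and the call ended without that cell. Fos (1.32 (1.19 to 1.47)), Fosb (1.40 (1.24 to 1.58)) and Junb (1.29 (1.12 to 1.49)) were under 1.5-fold with intervals past 1, and the intervals of Jund (1.33 (0.995 to 1.76)) and Fosl2 (1.15 (0.794 to 1.64)) included 1. For Fos the ratio was 0.789 (0.730 to 0.853) in Fib-1 and 0.911 (0.887 to 0.936) in Fib-2, on the other side of 1. For Jun it was 0.836 (0.684 to 1.02) and 1.18 (1.08 to 1.28). Immediate early genes in all had 5 higher and 2 lower of 30 tested, with a median of 0.08, against medians of 0.27 in Fib-1 and 0.52 in Fib-2. Digestion and incubation at 37 °C were the same for both pools, and their part in these values was not tested.

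The remaining lists had few calls in the diabetic comparison. Matricellular genes had 3 higher (Nov, Smoc2, Mgp) and 3 lower (Postn, Sparc, Cyr61) of 15 tested. The Nov and Smoc2 calls ended without the top cell, and Nov turned to 0.615 without cells holding UMIs of other cell types. Of 8 small leucine-rich proteoglycans 1, Aspn, was lower. Basement membrane genes had 2 lower (Lamb1, Sparc) of 12, and the Lamb1 call ended in 8 of 15 alternatives, with a ratio up to 0.842. Wnt pathway genes had 1 higher (Sfrp1) of 8, and TGF-beta and BMP genes 2 higher (Chrdl1, Gdf10) and 1 lower (Skil) of 19. The Sfrp1 and Chrdl1 calls ended without the top cell of each gene, and Gdf10 turned to 0.873 when thinned. Sfrp4, high in the class, had 1.43 (1.36 to 1.52) and missed the limit.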

How the data were processed

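Droplet single-cell RNA-seq of aortic cells gave 1 library of 4 pooled mice per group. Raw UMI counts per gene and barcode were deposited by the authors, and the submitters' processing notes name Cell Ranger 3.1.0, Partek and the build mm10. The barcode filter and the way the 13 classes were drawn are not given in the sources used here. Groups came from the labels and classes from the authors' deposited annotation. 2 diabetic barcodes with a blank class and all barcodes without a class were left out, and 0 columns of per-sample values were unused. The smallest barcode had 500 UMIs. Members and gene lists were chosen with earlier results of these data known.

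Counts were summed per class and library and scaled to CPM. Ratios have exact conditional binomial 95% intervals, with a floor of 3 UMIs for a sum of 0, and were used where both sums together held at least 30 UMIs. Class calls needed 2-fold in all 4 ratios and diabetic calls 1.5-fold, with intervals past 1. Shares of cells have Clopper-Pearson intervals, and differences of shares Newcombe intervals. For per-cell values, cells were thinned to 1000 UMIs (seed 1). Scrublet in scanpy 1.11.5 called 8 of 4215 control and 20 of 3458 diabetic barcodes as doublets, far under its expected rate of 0.05, and 0 Fib-3 cells, so no doublets were removed. Sums were also simulated with counting (Poisson) error alone, at the depth of the diabetic comparison (3975 genes). There 95.9% of true ratios lay inside their interval. Of genes changed 1.5-fold 30.3% were called, of those changed 2-fold 82.3%, and of those changed 4-fold 94.5%. Of unchanged genes, 2.87% were called. The simulation held no variation between cells or mice, and real counts of some genes varied more than counting gives. Its shares are therefore no error rate for the calls made here.

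Genes were named by interval bound: 15 higher and 12 lower between classes, 5 per single class and direction, 15 per direction for diabetes (detected in at least 10% of cells and no cell over 10% of UMIs, both only in the library with the higher level), the 7 AP-1 subunits, up to 4 called members per list, and 10 by variance over mean. Mitochondrial, ribosomal protein, haemoglobin and unnamed genes were not named. Alternatives were edgeR 4.0.16 TMM scaling in R 4.3.3, totals without mitochondrial, ribosomal protein and haemoglobin genes, equal weight per cell, thinning, other minimum counts and folds, and left-out cells. numpy 2.4.6, scipy 1.17.1 and pandas 2.3.3 were used in Python 3.11.15. Gene positions and promoters are from RefSeq (GRCm38.p6, the build of mm10); 17549 of 19357 genes matched by symbol.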

Additional observations from a re-analysis of the deposited data

Results flagged for a closer look

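Most genes called in diabetic Fib-3 and in another diabetic class moved the same way against their controls. Of the 167 higher and 265 lower Fib-3 calls, 30 and 38 were shared with Fib-1. With Fib-2, 35 and 41 were shared. Over all genes tested, 3.45% were called higher and 5.26% lower in diabetic Fib-1, and 5.43% and 3.62% in diabetic Fib-2. How many Fib-3 calls had enough UMIs in the other class was not counted, so an unshared call need not be particular to Fib-3. Opposite calls were fewer. In Fib-1, 1 higher and 1 lower Fib-3 call went the other way, and in Fib-2, 7 and 1. Of these opposite calls, 7 genes are described here. The interval of each ratio of ratios covers counting error only, and with 1 library per group no further test of the difference could be made. C4b, a complement component, was lower in diabetic Fib-3 (0.575) and higher in diabetic Fib-1 (2.499), a ratio of ratios of 0.233 (0.142 to 0.382). The other 6 described were higher in diabetic Fib-3 and lower in diabetic Fib-2. Mfap4 had 2.51 in Fib-3 and 0.601 in Fib-2, a ratio of ratios of 4.17 (3.02 to 5.75). Ntrk2, a neurotrophin receptor, had 2.71 and 0.642, giving 4.18 (2.19 to 7.95), from only 16 control and 24 diabetic Fib-3 UMIs. Apod, which encodes apolipoprotein D, had 1.81 and 0.644, giving 2.80 (1.84 to 4.27). Timp1, an inhibitor of matrix metalloproteinases, had 1.85 and 0.617, giving 2.999 (2.39 to 3.77). Clu, the secreted chaperone clusterin, had 1.79 and 0.470, giving 3.81 (2.95 to 4.92), and Cytl1, a small secreted protein, had 6.29 and 0.603, giving 10.3 (6.47 to 16.3). For the last 2 genes 1 diabetic Fib-3 cell held 59.1% and 92.5% of the UMIs, and for C4b, Mfap4, Ntrk2, Apod and Timp1 the top cell held 14.3%, 38.2%, 20.8%, 25.5% and 26.7%. Without each gene's top cell, C4b (0.567), Mfap4 (1.82) and Ntrk2 (2.49) stayed called in Fib-3. Apod (1.55), Timp1 (1.47) and Clu (1.04) did not, and Cytl1 turned to 0.522 with an interval of 0.172 to 1.34. In the other class all 7 stayed called in the same setting.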

How the results depend on the processing

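No paired analysis was possible because the labels give 1 library per group and no replicate numbers, and no replicate could be left out. The 131 higher class calls became 46 with cells thinned to 1000 UMIs, 59 with at least 100 UMIs, 57 at 3-fold and 51 without cells holding 3 or more UMIs of other cell types. The 139 lower calls became 83, 60, 82 and 83 in the same order, and 229 and 240 with minimums of 10 and 1 UMIs. The 167 higher diabetic calls became 36 when thinned, 53 at 100 UMIs, 86 at 2-fold and 77 without cells of other-type UMIs. They became 266 with totals lacking mitochondrial, ribosomal protein and haemoglobin genes, 362 with equal weight per cell, and 263 and 312 at 10 and 1 UMIs. The 265 lower diabetic calls became 69 when thinned, 126 at 100 UMIs, 125 at 2-fold, 134 without cells of other-type UMIs, 174 with the reduced totals and 536 with equal weight. The other-type filter removed 50 of 67 diabetic and 46 of 117 control Fib-3 cells. Of the alternatives chosen after seeing the data, the same filter without erythroid genes left out 7 and 26 cells and gave 123, 143, 136 and 227 calls. Leaving out the cells over 50% haemoglobin gave 122, 139, 188 and 241. These were 4 cells of diabetic Fib-1, 2 of diabetic Fib-2 and 1 of diabetic Fib-3. TMM scaling gave 142, 134, 158 and 276. Both differences of Fib-3 shares stayed inside their main intervals in the alternatives run. Whether the interval for annotated cells still left out 0 there was not checked. The difference among fibroblasts had no call to keep. Directions turned for diabetic Fam189b (0.582), Gdf10 (0.873), Maff (0.873), Mfap4 (0.806) and the Wnt list over Fib-2 in diabetic cells (median log2 0.16) when thinned. Without other-type cells they turned for Csf1 (class, 0.828), Tnfsf13b (class, 1.60), Fosl1 (0.794), Mfap4 (0.434), Nov (0.615), Penk (0.984), Pim1 (0.447), Socs3 (0.738) and Cxcl2 (0.351). Cxcl2 also turned without the 5% of cells with most UMIs (0.440), its top cell (0.824), other-type cells by markers other than erythroid (0.444) or the cells that lead 3 or more called genes (0.461). The cause of these turns was not tested, apart from the fewer cells or UMIs each setting leaves. Of further single-gene and list values, 2078 were counted as the same, 334 single-gene values no longer passed the limit and 26 list medians moved. For a single gene, the same means that the call held. For a list it means a median close to the main one, which near 0 may change sign.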
